A study of Mus musculus with 24 samples.

Results

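The genes described here are 30 genes of the oligodendrocyte lineage, taken by symbol from the 36605 genes counted in the hippocampus of *Egr1* conditional knockout (Egr1cKO) mice and their controls. All 30 were matched to 1 Ensembl identifier each and passed the filter on low counts in every comparison. Of these, 11 encode proteins of the myelin sheath, 6 act in myelin lipid synthesis or metabolism, and 4 others are mature oligodendrocyte genes, which gave 21 mature genes in all. A further 5 encode transcription factors of the lineage and 4 mark precursor cells (*Pdgfra*, *Cspg4*) or committed cells on the way to myelination (*Gpr17*, *Bcas1*).

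Hippocampal RNA of 24 mice was sequenced, 3 females and 3 males of each of 4 genotypes. Egr1wtNesCre- mice were the wild type, Egr1fNesCre- mice carried loxP-flanked (floxed) *Egr1* without Cre, Egr1wtNesCre+ mice carried Nestin-Cre alone, and Egr1fNesCre+ mice (Egr1cKO) carried both. The mice were adult, with no age given in the sources used here. Nestin-Cre is driven by a promoter active in neural precursor cells, from which neurons, astrocytes and oligodendrocytes descend, so the deletion is not limited to neurons by its driver. The numbers in the labels run in 1 range for mice with floxed *Egr1* and in another for mice with the wild-type allele, so these alleles and the 2 series of mice cannot be told apart. The totals per mouse ran from 18025168 to 34955004 counts, with a median of 22743950.5, and limit the precision of every level below. *Egr1* itself was at 4.85 to 10.2 CPM (reads scaled to a common library size) in Egr1fNesCre+ mice and at 47.6 to 149.0 CPM in the other 18. The labels give hippocampus as tissue and endocrine as cell type. Markers of pyramidal and granule neurons summed to 6689 to 10305 CPM, whereas 7 hormone genes of pituitary and pancreas summed to no more than 3.88 CPM in any mouse.

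Oligodendrocytes wrap axons in myelin, a stack of membrane rich in galactolipids and held together by a few abundant proteins. They arise from precursors that carry the growth factor receptor PDGFRA and the proteoglycan NG2, the product of *Cspg4*. The transcription factors OLIG2 and SOX10 act throughout the lineage, and MYRF switches on myelin genes in the maturing cell. In the hippocampus, much of the myelin lies in fibre tracts such as the alveus, the fimbria and the overlying corpus callosum, so a dissection can take along more or less of it. In bulk tissue, fewer oligodendrocytes and less RNA per oligodendrocyte cannot be told apart.

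The 30 genes summed to between 3574 and 6543 CPM per mouse, with a median of 4901. Per kilobase of exon, *Mbp* (ENSMUSG00000041607), which encodes myelin basic protein, the protein that seals the cytoplasmic faces of the myelin membrane, was at 265 CPM per kb over the 24 mice. *Mobp* at 91.9, *Plekhb1* at 77.8 and *Cnp* at 74.5 CPM per kb followed. *Pdgfra* at 5.82, *Cspg4* at 2.29 and *Pllp* at 1.76 CPM per kb were in the lower part of the list. The median over 19714 genes with a length was 2.84 CPM per kb, so *Cspg4* and *Pllp* lay below it, with *Aspa* (2.48) and *Tmem125* (2.64). Within mice of 1 sex and genotype, *Olig1* varied least, with a biological coefficient of variation of 0.0849, at the 9.27th percentile of all genes. *Tmem125* varied most, at 0.235.

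Whether loss of *Egr1* changed these genes was asked in 3 comparisons, Egr1fNesCre+ mice against all 18 others, against Egr1fNesCre- mice and against Egr1wtNesCre+ mice, which share the same 6 Egr1fNesCre+ mice. Egr1fNesCre+ mice were not tested against the wild type (Egr1wtNesCre-) alone. None of the 30 genes passed an FC of at least 1.2 with an adjusted *p* of at most 0.05 in edgeR's quasi-likelihood test in any of them. Across all genes, 0.00543%, 0.0221% and 0.00558% were called, that is 1, 4 and 1 genes. At an unadjusted *p* under 0.05, 12, 11 and 13 of the 30 genes were counted, beside 15.1%, 15.8% and 12.1% of all genes. No gene of the 30 had levels in Egr1fNesCre+ mice that lay wholly outside those of the control group, which 0.0101%, 0.446% and 0.385% of all genes did. The 21 mature genes had log2 fold changes below 0 in 21, 20 and 21 cases, with medians of −0.20, −0.21 and −0.27, beside medians of −0.01, −0.01 and −0.02 over all genes tested. Over all genes, 9553 of 18433, 9281 of 18074 and 9553 of 17909 were below 0. The mature genes vary together across the same mice, as described below. Neither their signs nor the counts at an unadjusted *p* are therefore separate observations. Without female 1 of Egr1fNesCre- the median against that group was −0.13, and without female 1 of Egr1wtNesCre+ the median against that group was −0.16. With DESeq2, *Mobp* and *Plekhb1* were called lower in Egr1fNesCre+ than in Egr1fNesCre- mice, among 61 genes in all, and no gene of the 30 was called in the other 2 comparisons (34 and 30 genes in all). Without male 1 of Egr1fNesCre-, edgeR called 8 of the 30 genes against the remaining Egr1fNesCre- mice, among 327 genes in all. Without male 2 of Egr1wtNesCre+ it called 3 against the remaining Egr1wtNesCre+ mice, among 795 genes in all.

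**Figure D1:**
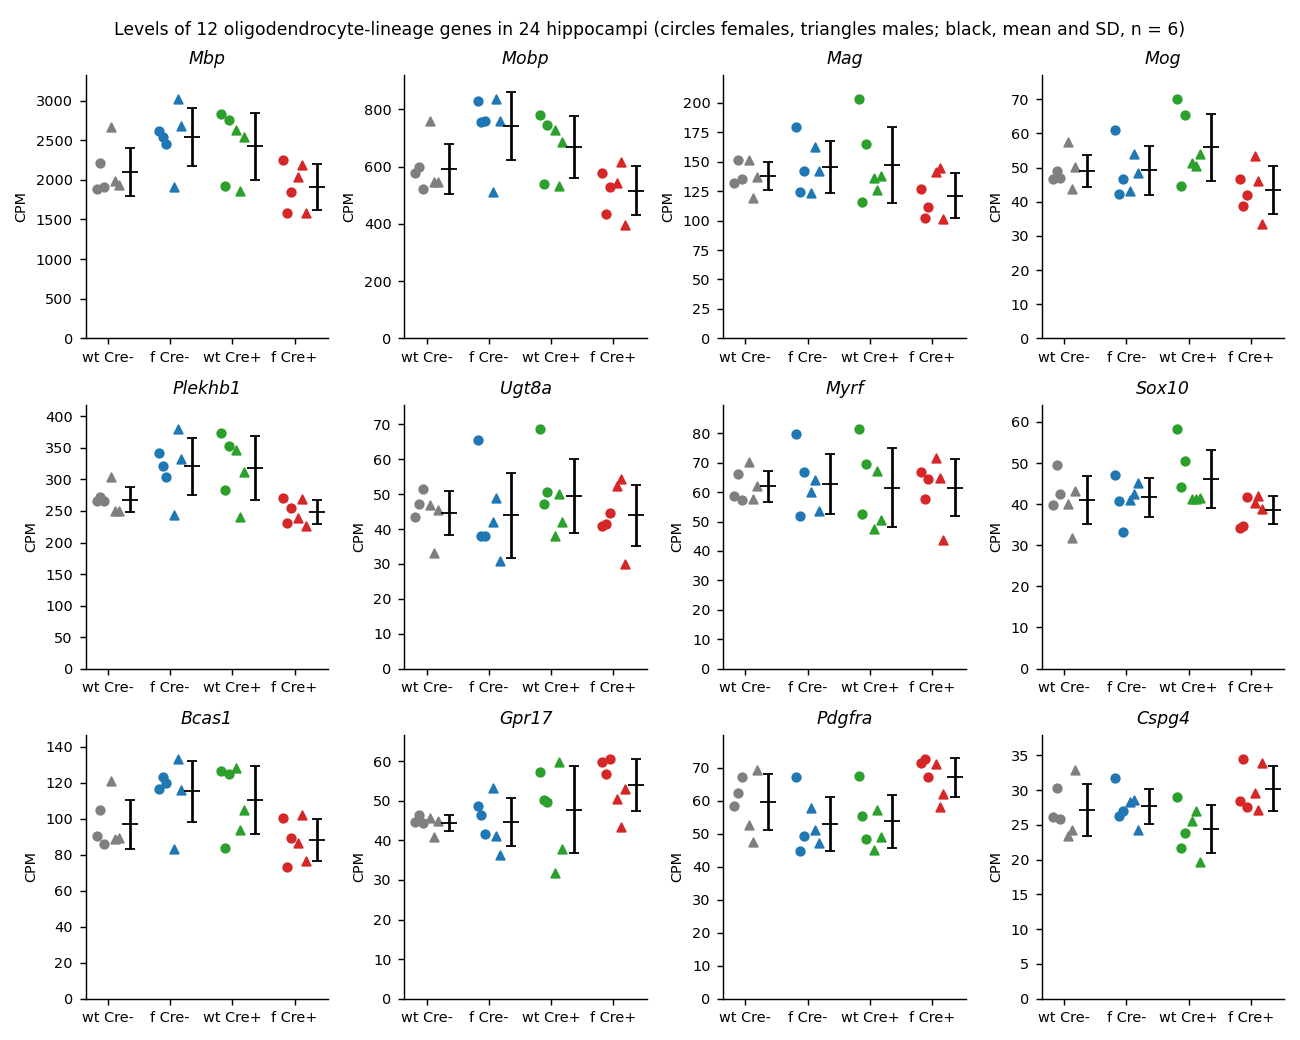
Level in CPM of 12 genes in each of 24 mice, by genotype, with females as circles and males as triangles. The black bar gives the mean and SD of 6 mice. In every panel the values of the 4 genotypes overlap, and the Egr1fNesCre+ mean is the lowest for *Mbp*, *Mobp*, *Mag* and *Mog* and the highest for *Pdgfra* and *Gpr17*.

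Among the myelin sheath genes, *Mobp* (ENSMUSG00000032517, chromosome 9), whose product is a small basic protein of the compact sheath, had the lowest *p* in 2 of these 3 comparisons. Its lowest, median and highest levels were 520.0, 561 and 761 CPM in Egr1wtNesCre- mice and 510.5, 759 and 838 CPM in Egr1fNesCre- mice. They were 534, 708 and 779 CPM in Egr1wtNesCre+ mice and 396, 536 and 615 CPM in Egr1fNesCre+ mice. All 6 Egr1fNesCre+ mice lay below the median of Egr1fNesCre- mice, while 5 of the 6 Egr1fNesCre- mice were at 755 CPM or more and 1 male was at 510.5 CPM. The log2FC was −0.52 ± 0.12 (SE) against Egr1fNesCre- mice (adjusted *p* = 0.243). It was −0.37 ± 0.11 against all other mice (adjusted *p* = 0.201) and −0.37 ± 0.12 against Egr1wtNesCre+ mice (adjusted *p* = 0.357). *Mbp* had medians of 1964 CPM in Egr1wtNesCre-, 2579 in Egr1fNesCre-, 2584 in Egr1wtNesCre+ and 1938 in Egr1fNesCre+ mice. Its lowest and highest levels were 1883 and 2667, 1911 and 3026, 1863 and 2830, and 1584 and 2247 CPM in that order. All 6 Egr1fNesCre+ mice were below the medians of both other transgenic groups, although 3 of them lay within the range of each. The wild-type medians of *Mbp* and *Mobp*, 1964 and 561 CPM, were closer to those of Egr1fNesCre+ mice than to those of the other groups. The log2FC of *Mbp* was −0.29 ± 0.10, −0.41 ± 0.11 and −0.34 ± 0.12 in the 3 comparisons (adjusted *p* = 0.223, 0.243 and 0.359).

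*Mag* (ENSMUSG00000036634) encodes the glycoprotein of the membrane next to the axon, and *Mog* (ENSMUSG00000076439) a protein of the outermost layer. The lowest, median and highest levels of *Mag* were 119.5, 136 and 152 CPM in Egr1wtNesCre-, 123, 142 and 179 CPM in Egr1fNesCre-, 116, 137 and 204 CPM in Egr1wtNesCre+ and 101, 119 and 144 CPM in Egr1fNesCre+ mice. The highest value, 204 CPM, belonged to female 1 of Egr1wtNesCre+ and the lowest, 101 CPM, to male 3 of Egr1fNesCre+. Levels of *Mog* were 43.8, 48.1 and 57.6 CPM, 42.3, 47.5 and 61.1 CPM, 44.5, 52.7 and 70.2 CPM, and 33.3, 44.1 and 53.5 CPM in the same order. Of the 6 Egr1fNesCre+ mice, 3 were below every other mouse in *Mag* and 3 in *Mog*, and the rest were mixed among the controls. The log2FC of *Mag* was −0.24 ± 0.10, −0.27 ± 0.11 and −0.28 ± 0.13 (adjusted *p* = 0.2503, 0.2795 and 0.422). That of *Mog* was −0.24 ± 0.10, −0.18 ± 0.11 and −0.36 ± 0.12 (adjusted *p* = 0.249, 0.433 and 0.357). Without female 1 of Egr1fNesCre- the log2FC against that group was −0.18 for *Mag* and −0.09 for *Mog*, and without female 1 of Egr1wtNesCre+ it was −0.16 and −0.29 against that group. The other 7 sheath genes, *Cnp*, *Mal*, *Cldn11*, *Pllp*, *Tspan2*, *Opalin* and *Ermn*, all had values below 0 in the 3 comparisons, from −0.07 ± 0.18 for *Pllp* against Egr1fNesCre- mice to −0.48 ± 0.19 for *Opalin* against Egr1wtNesCre+ mice. *Cnp* overlaps *Dnajc7* on the other strand and the libraries were not stranded, so its count can hold reads of that gene.

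The 6 genes of myelin lipids and metabolism had median log2FC values of −0.18, −0.15 and −0.23 in the 3 comparisons. *Ugt8a* (ENSMUSG00000032854), which encodes the enzyme that makes the galactolipid of myelin, was at medians of 46.0, 40.1, 48.7 and 43.0 CPM in Egr1wtNesCre-, Egr1fNesCre-, Egr1wtNesCre+ and Egr1fNesCre+ mice. Its lowest and highest levels were 33.0 and 51.5, 30.9 and 65.5, 38.0 and 68.7, and 29.97 and 54.3 CPM, so the groups lay over each other. The log2FC was −0.06 ± 0.13, 0.00 ± 0.17 and −0.16 ± 0.15, with a 95% interval against all other mice from −0.32 to 0.20. *Cryab*, a small heat shock protein of mature oligodendrocytes and astrocytes, was tighter, at medians of 50.2, 64.7, 59.8 and 51.2 CPM. Its levels reached from 44.6 to 59.8, 50.4 to 74.3, 46.2 to 78.6 and 48.3 to 56.5 CPM. *Cryab* overlaps *Hspb2* on the other strand. *Plekhb1* (ENSMUSG00000030701), a membrane-associated protein, had medians of 266, 327, 329 and 247 CPM. It ranged from 249.9 to 303 CPM in Egr1wtNesCre-, 244 to 381 CPM in Egr1fNesCre-, 240.5 to 374 CPM in Egr1wtNesCre+ and 226 to 271 CPM in Egr1fNesCre+ mice. All 6 Egr1fNesCre+ mice were below the medians of Egr1fNesCre- and Egr1wtNesCre+ mice in both genes. The wild-type medians of both genes lay closer to those of Egr1fNesCre+ mice than to those of the other groups. The log2FC of *Plekhb1* was −0.37 ± 0.09 against Egr1fNesCre- mice and −0.35 ± 0.10 against Egr1wtNesCre+ mice (adjusted *p* = 0.243 and 0.357), and in the latter comparison it had the lowest *p* of the 30 genes. Against all 18 others it was −0.28 ± 0.09 (adjusted *p* = 0.204).

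The 5 transcription factors had median log2FC values of −0.12, −0.11 and −0.07 in the 3 comparisons. *Myrf* (ENSMUSG00000036098) had medians of 60.4, 62.0, 59.9 and 64.8 CPM in the order used above and levels from 57.1 to 70.2, 52.0 to 79.8, 47.5 to 81.5 and 43.9 to 71.5 CPM. Its log2FC was −0.01 ± 0.10, −0.02 ± 0.12 and 0.01 ± 0.13 in the 3 comparisons, and the 95% interval against all other mice ran from −0.21 to 0.19. *Sox10* (ENSMUSG00000033006) was at 31.7, 41.3 and 49.6 CPM, 33.3, 41.7 and 47.2 CPM, 41.1, 42.8 and 58.3 CPM, and 34.2, 39.6 and 41.9 CPM as lowest, median and highest level. All 6 Egr1fNesCre+ mice were below the median of Egr1wtNesCre+ mice, and 4 of them below all of these. The log2FC of *Sox10* was −0.15 ± 0.08, −0.11 ± 0.08 and −0.25 ± 0.10 (adjusted *p* = 0.397, 0.520 and 0.362). *Olig2* (ENSMUSG00000039830) was at 21.9, 29.8 and 31.4 CPM, 28.3, 32.6 and 37.9 CPM, 24.5, 27.5 and 38.6 CPM, and 25.4, 27.3 and 30.8 CPM. In 4 of the 6 Egr1fNesCre+ mice it was below all Egr1fNesCre- mice. The log2FC of *Olig2* was −0.12 ± 0.08, −0.23 ± 0.08 and −0.07 ± 0.10 (adjusted *p* = 0.505, 0.261 and 0.776).

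The precursor genes and *Gpr17* stood on the other side of 0. So did the medians of several lists of genes of other cells, given below. *Pdgfra* (ENSMUSG00000029231, chromosome 5) was at 47.6, 60.4 and 69.3 CPM in Egr1wtNesCre-, 44.7, 50.3 and 67.1 CPM in Egr1fNesCre-, 45.2, 52.1 and 67.5 CPM in Egr1wtNesCre+ and 58.2, 69.2 and 72.7 CPM in Egr1fNesCre+ mice. All 6 Egr1fNesCre+ mice were above the medians of both transgenic control groups, and 4 of them were above every Egr1fNesCre- mouse. The log2FC was 0.28 ± 0.09 against all other mice, 0.34 ± 0.09 against Egr1fNesCre- and 0.32 ± 0.09 against Egr1wtNesCre+ mice (adjusted *p* = 0.201, 0.243 and 0.357). *Cspg4* (ENSMUSG00000032911) was at 23.3, 26.0 and 32.9 CPM, 24.3, 27.6 and 31.7 CPM, 19.7, 24.7 and 29.0 CPM, and 27.1, 29.0 and 34.5 CPM. Its values were less apart than those of *Pdgfra* against Egr1fNesCre- mice, with 2 Egr1fNesCre+ mice above all of these. Against Egr1wtNesCre+ mice, all 6 were above the median and 3 above every mouse in both genes. The log2FC of *Cspg4* was 0.20 ± 0.08, 0.13 ± 0.09 and 0.31 ± 0.10 (adjusted *p* = 0.264, 0.478 and 0.357). *Gpr17* (ENSMUSG00000052229), the gene of a receptor found in cells that have left the precursor state, was at 40.7, 44.7 and 46.5 CPM, 36.2, 44.0 and 53.2 CPM, 31.6, 49.9 and 59.6 CPM, and 43.3, 54.9 and 60.5 CPM. Egr1wtNesCre+ mice alone covered nearly the whole span of *Gpr17*. The log2FC of *Gpr17* was 0.25 ± 0.09, 0.27 ± 0.09 and 0.18 ± 0.12 (adjusted *p* = 0.233, 0.262 and 0.542). *Gpr17* overlaps *Lims2* on the other strand.

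*Bcas1* (ENSMUSG00000013523), a gene of newly myelinating cells that is listed with the precursor and committed genes, sided with the mature genes. It was at 86.2, 89.98 and 121 CPM, 83.3, 118 and 133 CPM, 83.6, 115 and 128 CPM, and 73.4, 88.0 and 102 CPM in the 4 genotypes. All 6 Egr1fNesCre+ mice were below the medians of the other transgenic groups, while the wild-type median was close to theirs (89.98 and 88.0 CPM). The log2FC was −0.28 ± 0.10, −0.39 ± 0.11 and −0.32 ± 0.12 (adjusted *p* = 0.224, 0.243 and 0.359). *Bcas1* overlaps 2 antisense genes, *Bcas1os1* and *Bcas1os2*.

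**Figure D2:**
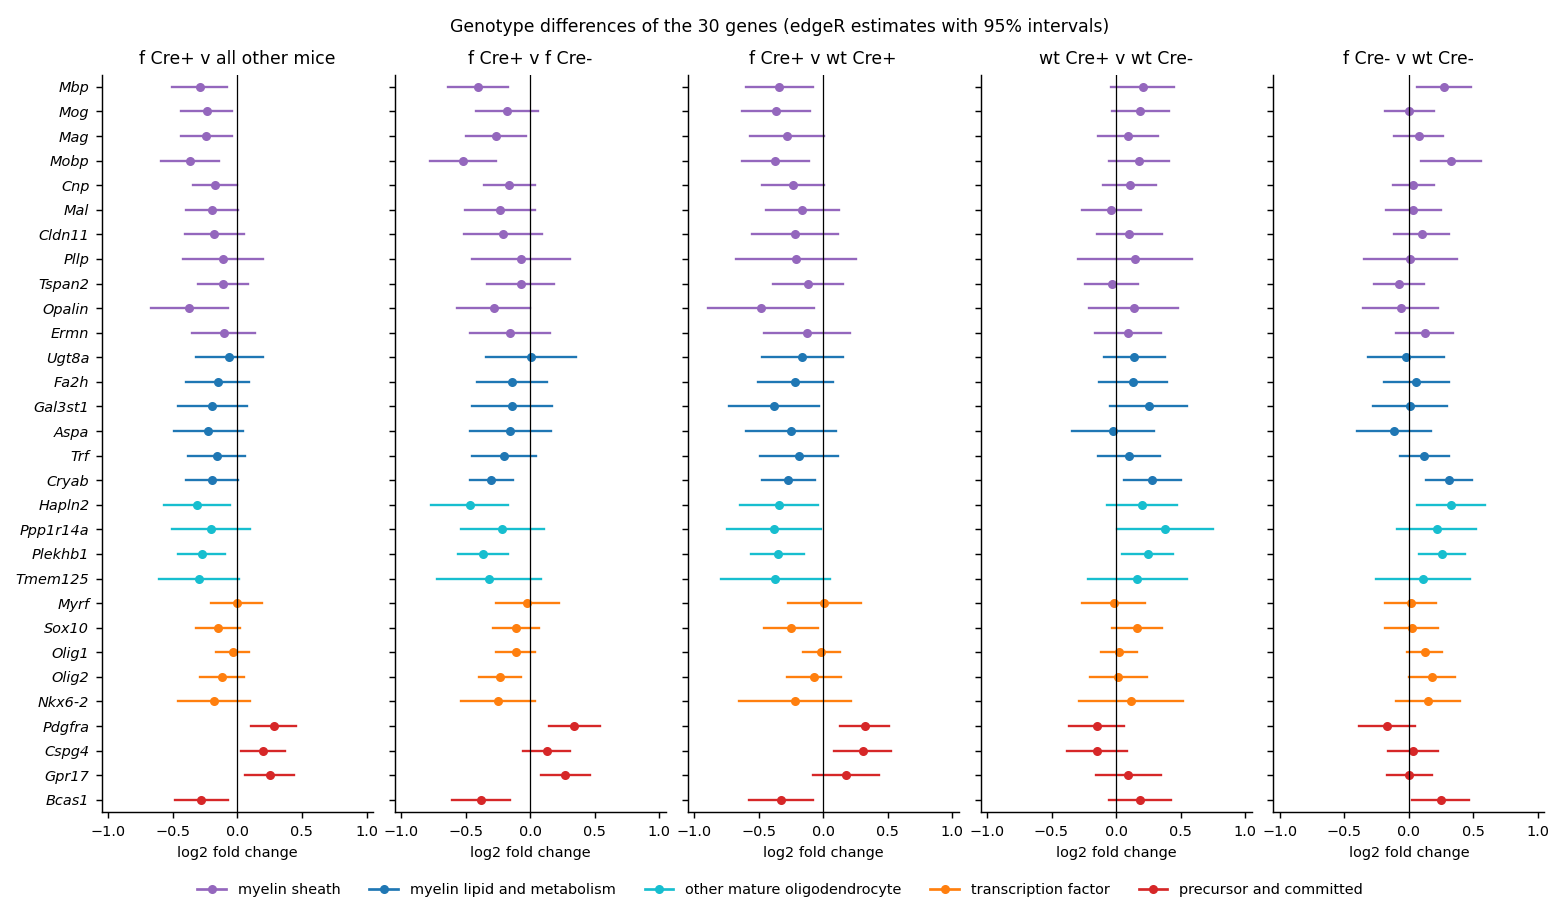
Log2 fold change of each of the 30 genes in 5 comparisons of genotypes, as edgeR estimates (points) with 95% intervals (lines), coloured by class. In the 3 comparisons of Egr1fNesCre+ mice most points of the mature genes lie left of 0 and *Pdgfra*, *Cspg4* and *Gpr17* lie right of it, and in the comparisons between control groups most points lie right of 0.

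The control groups were compared for the effect of each construct alone. Egr1wtNesCre+ against Egr1wtNesCre- mice gave no call among the 30 genes or among all genes (0%), with 3 of the 30 and 6.13% of all genes at an unadjusted *p* under 0.05. DESeq2 called 16 genes in all and none of the 30. The mature genes had a median log2FC of 0.14, with 3 of 21 below 0. *Cryab* (0.28 ± 0.10) and *Plekhb1* (0.24 ± 0.09) had the lowest *p* (adjusted *p* = 0.763 for both). Egr1fNesCre- against Egr1wtNesCre- mice likewise gave no call (0% of all genes; 2 genes with DESeq2, none of the 30), with 6 of the 30 and 9.42% of all genes at an unadjusted *p* under 0.05. Here the median of the mature genes was 0.08, with 4 of 21 below 0, and *Cryab* (0.31 ± 0.09), *Plekhb1* (0.26 ± 0.09) and *Mobp* (0.33 ± 0.11) were highest in order of *p* (adjusted *p* = 0.524 for each). The log2FC values of *Mbp*, *Mog*, *Mag*, *Ugt8a*, *Myrf* and *Sox10* for Nestin-Cre alone were 0.21, 0.19, 0.09, 0.14, −0.02 and 0.16, and for floxed *Egr1* alone 0.27, 0.00, 0.08, −0.02, 0.01 and 0.02. Those of *Olig2*, *Gpr17*, *Bcas1*, *Pdgfra* and *Cspg4* were 0.02, 0.09, 0.19, −0.15 and −0.15 for Nestin-Cre and 0.18, 0.00, 0.25, −0.17 and 0.03 for floxed *Egr1*. Both comparisons share the 6 wild-type mice. Without female 1 of Egr1wtNesCre+ the median of the mature genes for Nestin-Cre was 0.03, and without female 1 of Egr1fNesCre- that for floxed *Egr1* was −0.02.

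The interaction of floxed *Egr1* and Nestin-Cre asks whether both constructs together differ from the sum of each. At an adjusted *p* of at most 0.05, 0 of the 30 genes and 0.00533% of all genes (1 gene) were called by edgeR, while DESeq2 called 36 genes in all, among them *Mobp*, *Cryab* and *Plekhb1* with negative terms. Unadjusted, 10 of the 30 genes (33.3%) and 18.8% of all genes had a *p* under 0.05. *Plekhb1* had a term of −0.61 ± 0.13, *Cryab* of −0.58 ± 0.13, *Mobp* of −0.69 ± 0.18, *Mbp* of −0.61 ± 0.17 and *Pdgfra* of 0.50 ± 0.14 on the log2 scale (adjusted *p* = 0.152 for each). The terms of *Mag*, *Mog*, *Sox10*, *Olig2*, *Bcas1*, *Cspg4* and *Gpr17* were −0.35 ± 0.17, −0.36 ± 0.16, −0.27 ± 0.14, −0.24 ± 0.13, −0.57 ± 0.17, 0.28 ± 0.14 and 0.18 ± 0.16. Those of *Ugt8a* and *Myrf* were −0.13 ± 0.21 and 0.00 ± 0.17. All 21 mature genes had a negative term, with a median of −0.35, beside −0.02 over all genes, where 9870 of 18766 terms were negative. Without the 5 mice above 100 CPM of the choroid plexus gene *Ttr* the median of the mature genes was −0.19. The term also takes in both single-construct groups. Their mature genes had a median log2FC of 0.14 (Nestin-Cre) and 0.08 (floxed *Egr1*) against the wild type.

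Females and males differed in none of the 30 genes at the same threshold, which 0.0701% of all genes (12 genes) passed, nor did DESeq2 call any of them. *Olig1* (log2FC 0.13 ± 0.05, adjusted *p* = 0.790) and *Fa2h* (0.23 ± 0.10, adjusted *p* = 0.827), the gene of an enzyme that hydroxylates myelin lipids, had the lowest *p*, and 4 of the 30 (13.3%) were under 0.05 unadjusted beside 5.66% of all genes. Whether the sex difference in Egr1fNesCre+ mice departed from its mean in the other genotypes was tested as an interaction. No gene of the 30 passed (0.00507% of all genes, 1 gene), and 1 of the 30 (3.33%) beside 6.09% of all genes had an unadjusted *p* under 0.05. *Gal3st1*, the sulfotransferase of myelin lipids, had a term of −0.56 ± 0.24 (adjusted *p* = 0.769) and *Sox10* of −0.27 ± 0.15 (adjusted *p* = 0.864).

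The level of the mature genes varied between mice of the same genotype. The mean of the 21 mature genes, each on log2(CPM + 1) relative to its own mean over 24 mice, was highest in female 1 of Egr1wtNesCre+ (0.54) and lowest in male 3 of Egr1fNesCre+ (−0.42), a 1.93-fold span. It was −0.20 to 0.16 (median −0.03) in Egr1wtNesCre-, −0.16 to 0.32 (median 0.00) in Egr1fNesCre-, −0.15 to 0.54 (median 0.05) in Egr1wtNesCre+ and −0.42 to 0.02 (median −0.11) in Egr1fNesCre+ mice. The means were −0.02 ± 0.12, 0.07 ± 0.19, 0.10 ± 0.25 and −0.16 ± 0.17 (SD, n = 6). The 4 ranges overlapped.

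This variation was shared. After the mean of each sex and genotype had been removed, the first principal component of the 30 genes held 54.4% of their variance and the second 18.04%. The median Pearson *r* over the 210 pairs of mature genes was 0.67, with 206 pairs above 0. When each mouse was left out in turn, the first share ran from 48.9 to 56.9% and this median from 0.58 to 0.70. *Mag* (*r* = 0.96), *Trf* (0.94), *Cnp* (0.93) and *Mog* (0.93) followed the mean of the other mature genes most closely. *Trf* encodes transferrin, an iron carrier that oligodendrocytes make. *Pllp* (0.16), *Hapln2* (0.39) and *Gal3st1* (0.51) followed it least, and *Pllp* was at no more than 5.57 CPM in any mouse. Among the transcription factors, *r* with this mean was 0.73 for *Olig1*, 0.72 for *Myrf*, 0.62 for *Sox10*, 0.61 for *Nkx6-2* and 0.42 for *Olig2*. *Bcas1* was at 0.78, whereas *Pdgfra* was at 0.27, *Cspg4* at 0.11 and *Gpr17* at −0.11. These correlations are descriptions over 24 mice whose genes share library, depth and scaling.

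**Figure D3:**
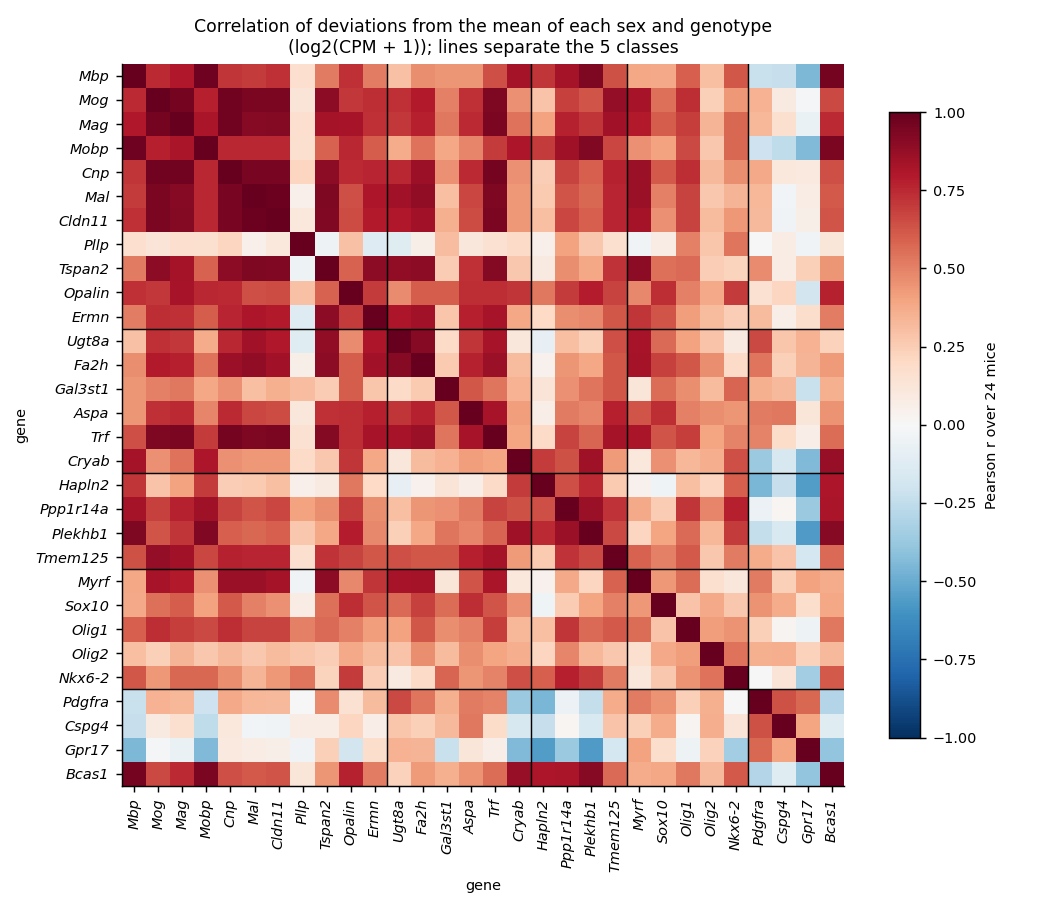
Pearson *r* over 24 mice between all pairs of the 30 genes, on deviations of log2(CPM + 1) from the mean of each sex and genotype, with black lines between the 5 classes. Most pairs of mature genes are red, with a median of 0.67, whereas the medians of *Pdgfra*, *Cspg4* and *Gpr17* with the 21 mature genes are 0.33, 0.08 and −0.03.

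Outside the 30 genes, those with a high *r* to the mature mean included *Tmem88b* (0.91), *Sept4* (0.89), *Tmem63a* (0.89), *Itgb4* (0.89), *Tprn* (0.88), *Gatm* (0.88), *Lpar1* (0.87), *Cxcl5* (0.87) and *Galnt6* (0.87). Of these, *Tmem88b*, *Sept4*, *Tmem63a* and *Lpar1* stood on a list of 50 further oligodendrocyte genes. *Cxcl5*, a chemokine gene, averaged 0.617 CPM. On that list, the 32 mature genes had a median *r* of 0.72, the 8 committed genes of 0.29 and the 10 precursor genes of 0.08. Over all 19742 genes the median was −0.02, and from the 5th to the 95th percentile *r* ran from −0.41 to 0.43. No gene of the 50 was called in any of the 8 comparisons. Their mature genes had a median log2FC of −0.10, −0.14 and −0.17 in the 3 comparisons of Egr1fNesCre+ mice, and their precursor genes of 0.14, 0.15 and 0.14.

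*Mag* was set against 9 single genes over 24 mice, on levels that include the differences between groups, with two-sided permutation tests from 100000 resamples adjusted over the 9 pairs. It went with *Mog* (*r* = 0.92, rho = 0.85, permutation *p* = 2e-05, the smallest these resamples can give, adjusted 0.00018 for both). It also went with *Sox10* (*r* = 0.67, permutation *p* = 0.00044, adjusted 0.00198; rho = 0.57, permutation *p* = 0.00346, adjusted 0.0156). Without the 2 mice farthest from the median of *Mag*, *r* was 0.87 and 0.55. Within the 12 mice with floxed *Egr1* it was 0.94 and 0.51, and within the 12 with the wild-type allele 0.91 and 0.79. For *Pdgfra* the *r* was −0.06 (permutation *p* = 0.763), for *Cspg4* −0.09 (0.669), for *Gpr17* −0.20 (0.346), for the neuronal gene *Rbfox3* −0.01 (0.975), for the astrocyte gene *Aqp4* −0.20 (0.351) and for the microglial gene *Cx3cr1* 0.14 (0.517), each by permutation. On deviations from the mean of each sex and genotype, *r* was 0.96 for *Mog*, 0.60 for *Sox10*, 0.33 for *Pdgfra*, 0.16 for *Cspg4*, −0.07 for *Gpr17*, 0.30 for *Rbfox3*, 0.16 for *Aqp4* and 0.33 for *Cx3cr1*, so *Pdgfra*, *Cspg4*, *Rbfox3* and *Aqp4* changed sign. On levels, for *Gpr17*, *r* was −0.61 within the mice with floxed *Egr1* and 0.31 within the others. The choroid plexus gene *Ttr* had *r* = 0.42 (permutation *p* = 0.0474, adjusted 0.142), which was 0.17 without the 2 farthest mice and 0.57 on deviations.

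The second component had *Pdgfra* (*r* = 0.82 with it), *Gpr17* (0.80) and *Ugt8a* (0.59) at one end and *Hapln2* (−0.74), *Cryab* (−0.60), *Plekhb1* (−0.59), *Bcas1* (−0.54) and *Mbp* (−0.51) at the other. It ran with a property of the libraries, the median level of long genes (from 6007 exonic bases) minus that of short genes (up to 2128 bases), in log2 relative to the 24-mouse mean. Its *r* with this long-minus-short measure was 0.93 over 24 mice, and that of the first component was 0.17. The measure was −0.03 to 0.11 in Egr1wtNesCre-, −0.15 to 0.10 in Egr1fNesCre-, −0.16 to 0.16 in Egr1wtNesCre+ and −0.08 to 0.18 in Egr1fNesCre+ mice, with medians of 0.04, −0.11, −0.09 and 0.12. In Egr1fNesCre+ mice, 5 of the 6 were at 0.09 or more and male 3 was at −0.08. The share of mitochondrial counts was 4.42 to 5.10%, 4.18 to 5.44%, 4.12 to 6.60% and 4.31 to 6.12% in the same order.

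**Figure D4:**
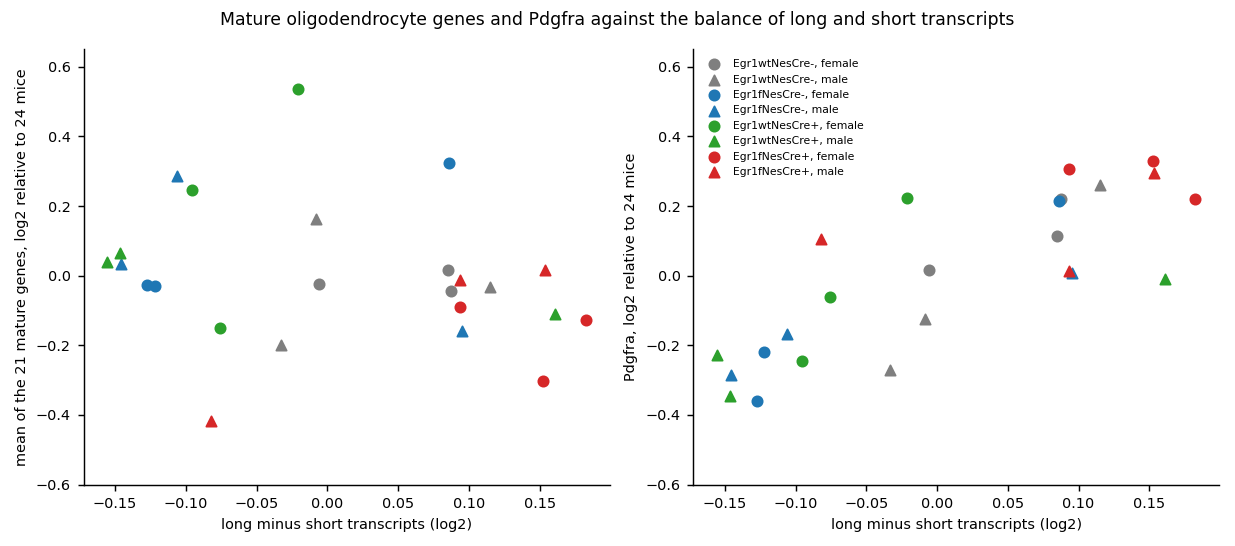
Mean of the 21 mature genes (left) and *Pdgfra* (right) in each mouse, in log2 relative to the mean of 24 mice, against the long-minus-short measure of the library. *Pdgfra* lies along a line (*r* = 0.81), whereas the mature mean scatters (*r* = −0.22) and its highest and lowest mice are at −0.02 and −0.08 on the horizontal axis.

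On levels over all 24 mice, which include the differences between genotypes in the genes and in the measure, *r* with the measure was 0.81 for *Pdgfra*, 0.65 for *Gpr17* and 0.53 for *Cspg4*, and −0.72 for *Hapln2*, −0.63 for *Plekhb1*, −0.56 for *Mbp*, −0.55 for *Bcas1* and −0.52 for *Mobp*. It was −0.17 for *Mag*, −0.11 for *Mog* and −0.22 for the mature mean. This mean averages genes of both signs, since *r* was 0.42 for *Ugt8a* and 0.34 for *Tspan2*. For *Myrf* it was 0.47. When the measure was added to the fit, an alternative chosen after the data were seen, the log2FC of *Pdgfra* against all other mice was 0.11 ± 0.07 and its interaction term 0.17 ± 0.12, in place of 0.28 and 0.50. The median of the mature genes was then −0.25 against all other mice, −0.36 against Egr1fNesCre- and −0.33 against Egr1wtNesCre+ mice, with 20 of 21 below 0 in each, and no gene of the 30 was called. Without the measure in the fit, the log2FC values of the 30 genes followed their *r* with the measure. The *r* between these quantities was 0.79 against all other mice, 0.86 against Egr1fNesCre- and 0.78 against Egr1wtNesCre+ mice. Over the 21 mature genes it was 0.64, 0.73 and 0.69 in the same order. Both quantities come from the same mice, so these values are descriptions. The measure was computed from the same libraries, and its part in the differences was not tested beyond the fit that includes it.

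Markers of other cells were set beside the mature genes. The summed level of 10 choroid plexus genes was 149 to 196 CPM in Egr1wtNesCre-, 138 to 1475 CPM in Egr1fNesCre-, 175 to 2793 CPM in Egr1wtNesCre+ and 129 to 1588 CPM in Egr1fNesCre+ mice, and female 1 of Egr1wtNesCre+ was highest in both this sum and the mature mean. On deviations, the mean of these 10 genes had *r* = 0.62 with the mature mean, those of 10 striatal and 9 thalamic genes −0.11 and 0.05, and those of astrocyte, endothelial and microglial genes 0.24, 0.23 and 0.13. The choroid plexus list holds *Enpp2*, which is also on the list of further mature oligodendrocyte genes. The *r* without this gene or without female 1 of Egr1wtNesCre+ is not given here. Male 3 of Egr1fNesCre+, the mouse with the lowest mature mean, had the highest striatal sum, 314 CPM against 167 to 220.2 CPM in the others, and a mitochondrial share of 6.12%. Without it the median log2FC of the mature genes against all other mice was −0.18. On deviations, *r* with the mature mean was −0.02 for meningeal and fibroblast genes, 0.08 for pyramidal and granule neuron genes and −0.04 for interneuron genes. Microglial genes summed to 346 to 398 CPM in Egr1fNesCre+ mice and to 265 to 375 CPM in the other 18. Astrocyte genes summed to 4899 to 6632 CPM in Egr1fNesCre+ mice and to 4520 to 6385 CPM in the others, and *Aqp4* was 1 of the 4 genes called against Egr1fNesCre- mice, with a higher level. No listed marker was at 0 in every mouse of a genotype. Median log2FC values in the 3 comparisons of Egr1fNesCre+ mice were 0.52, 0.64 and 0.32 for meningeal and fibroblast genes. Endothelial genes were at 0.24, 0.12 and 0.23, microglial genes at 0.16, 0.16 and 0.13, and astrocyte genes at 0.14, 0.15 and 0.09. Striatal genes were at 0.22, 0.13 and 0.25, and choroid plexus genes at −0.27, −0.04 and −0.77. Positive values were thus not limited to the precursor genes. The part of these cells in the differences was not tested.

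Because the mature genes varied together, the promoters of the 30 genes were searched for short motifs of factors that act in the lineage. RefSeq windows of GRCm38.p6, from 250 bases before to 50 after a start site, were matched for 21 of the 30 genes, as 27 of 32851 windows. These 21 were taken for having an entry, whatever their class. The SOX letters ACAAAG, on either strand, were in 25.9% of these and 18.7% of all windows, and the MYRF letters CTGGCAC or CTGGTAC in 25.9% and 7.10%. The E-box letters CAGCTG or CATATG, bound by factors such as OLIG2, were in 18.5% and 19.8%, and the EGR1 core GTGGGCG in 7.41% and 7.97%. Overlapping windows of 1 gene count separately, and a match describes letters only. The 250 bases before the start are shown for 4 genes, with SOX and MYRF letters in capitals, 5′ to 3′ on the strand of the gene. These 4 were picked from genes that follow the mature mean or had the lowest *p*, and others such as *Plekhb1* are not shown. Each of the 4 holds a match, whereas 6 of the 21 genes held the SOX letters and 6 the MYRF letters. *Mobp*, at chr9:120149492-120149741 on the plus strand, held the SOX letters 6 times. *Mag*, at chr7:30914864-30915113 on the minus strand, and *Cnp*, at chr11:100574689-100574938 on the plus strand, held each motif 1 time, and *Mog*, at chr17:37023399-37023648 on the minus strand, held the MYRF letters.
Mobp: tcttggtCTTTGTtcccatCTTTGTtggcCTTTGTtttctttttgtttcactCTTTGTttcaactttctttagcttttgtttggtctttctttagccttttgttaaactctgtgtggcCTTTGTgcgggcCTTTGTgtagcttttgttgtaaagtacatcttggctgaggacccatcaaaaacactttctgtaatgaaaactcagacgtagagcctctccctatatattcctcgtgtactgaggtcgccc
Mag: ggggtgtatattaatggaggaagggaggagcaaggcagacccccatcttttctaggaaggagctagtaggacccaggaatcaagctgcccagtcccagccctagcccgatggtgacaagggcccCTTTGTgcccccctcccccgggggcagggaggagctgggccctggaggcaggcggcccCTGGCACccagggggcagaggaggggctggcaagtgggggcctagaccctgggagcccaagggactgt
Cnp: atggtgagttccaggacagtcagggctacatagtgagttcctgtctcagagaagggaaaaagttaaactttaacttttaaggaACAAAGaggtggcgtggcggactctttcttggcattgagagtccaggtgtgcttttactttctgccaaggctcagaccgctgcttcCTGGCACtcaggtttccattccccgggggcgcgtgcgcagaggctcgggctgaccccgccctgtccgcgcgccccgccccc
Mog: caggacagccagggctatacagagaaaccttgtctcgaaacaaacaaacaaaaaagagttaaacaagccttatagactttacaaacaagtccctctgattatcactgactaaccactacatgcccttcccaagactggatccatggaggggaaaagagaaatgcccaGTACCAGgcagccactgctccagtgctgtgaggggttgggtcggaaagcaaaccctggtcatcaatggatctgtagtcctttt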

How the data were processed

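Hippocampal polyA RNA of 24 mice was sequenced without strand information. The authors deposited raw counts per Ensembl gene. The submitters' processing notes name Trim Galore 3.8.2, FastQC, STAR 2.7.9 and GRCm38, while the study's methods give other tool versions and name STAR for the quantification too. Symbols came from GENCODE M21 (36493 of 36605 genes). Counts were filtered (filterByExpr, minimum count 10), scaled by TMM and tested with edgeR 4.0.16 (quasi-likelihood F test, Benjamini-Hochberg, R 4.3.3). Sex was a covariate where 2 genotypes were compared, and the fits against all other mice had none. Calls needed an adjusted *p* no higher than 0.05 together with an FC reaching 1.2 in either direction, and interactions that *p* alone. DESeq2 1.42.0 was an alternative. The fits were tested on simulated counts. SE was derived from the log2FC and F statistic. Correlations used log2(CPM + 1), a pseudocount of 1. Components, pairs of members and *r* with the mature mean used deviations from the mean of each sex and genotype, and those of *Mag* with single genes and of members with the library measure used the levels themselves, in Python 3.11.15 and SciPy 1.17.1. Full statistics are given for 11 members spread over the roles, for any called member and for the 2 members with the lowest *p* in a comparison; values of other members named beside them were chosen after they were seen. The 10 genes most like the mature mean were taken by *r*, of which 1 is not reported here. The 30 members and all marker lists were chosen with earlier results of these data known. Mice of a group are separate animals, and no 2 libraries of the same sex and genotype were alike within counting error (chi-square per gene 5.04 to 42.0 over 24 pairs). Pairs from different groups were not checked.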

Additional observations from a re-analysis of the deposited data

Results flagged for a closer look

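In each group of 6 mice, the highest or lowest level of a gene was marked where its gap to the nearest other mouse took up more of the range of the group than Dixon's criterion allows. Of 124 such groups, 11 (8.87%) were marked, where chance marks about 1 in 20. Male 1 of Egr1wtNesCre- was above the other 5 mice in *Mobp* (760.5 CPM against 520.0 to 599 CPM), *Mal* (221 CPM against 161 to 180.3 CPM) and *Hapln2* (28.1 CPM against 19.7 to 21.6 CPM). Male 1 of Egr1fNesCre- was below its group in *Mobp* (510.5 CPM against 755 to 838 CPM) and *Bcas1* (83.3 CPM against 116 to 133 CPM). Female 1 of Egr1wtNesCre+, the mouse with the highest mature mean and the highest choroid plexus sum, was above its group in *Trf* (337 CPM against 183 to 235 CPM), *Ermn* (64.7 CPM against 33.0 to 44.7 CPM) and *Olig2* (38.6 CPM against 24.5 to 28.9 CPM). Male 2 of Egr1wtNesCre- was below its group in *Trf* (169 CPM against 201 to 215 CPM) and *Olig2* (21.9 CPM against 28.3 to 31.4 CPM). Female 1 of Egr1fNesCre- was above its group in *Tspan2* (152 CPM against 99.2 to 116 CPM). The causes were not tested.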

How the results depend on the processing

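The count of 0 called members changed under few settings. Against Egr1fNesCre- mice it was 2 with DESeq2, 9 without the filter on low counts, 1 (*Mobp*, among 50 genes in all) in females only, and 0 to 8 when each mouse was left out. Against Egr1wtNesCre+ mice it was 7 without the filter and 0 to 3 when each mouse was left out. For floxed *Egr1* alone it was 3 without the filter, and for the interaction 3 with DESeq2 and 9 without the filter. Over all genes, edgeR without the filter called 7, 808, 529, 156, 163, 1173, 13 and 146 genes in the 8 comparisons, in the order of the report, and DESeq2 34, 61, 30, 16, 2, 36, 18 and 5. Leaving out 1 mouse gave 1 to 215 against all other mice (215 without male 3 of Egr1fNesCre+), 1 to 327 against Egr1fNesCre- (327 without its male 1), 1 to 795 against Egr1wtNesCre+ and 0 to 201 for Nestin-Cre alone (795 and 201 without male 2 of Egr1wtNesCre+). The cause was not tested.

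Single log2FC values changed sign, and not all of them were near 0 in the main fit. Farther from 0 there were *Pdgfra* for Nestin-Cre alone (−0.15) and for floxed *Egr1* alone (−0.17), *Ugt8a* against Egr1wtNesCre+ mice (−0.16) and the interaction term of *Gpr17*. Against Egr1fNesCre- mice *Ugt8a* was −0.0023 without the sex term, −0.17 in females, −0.12 without the 5 mice high in *Ttr* and −0.36 with the long-minus-short measure, and *Myrf* was 0.028 in males. Against Egr1wtNesCre+ mice *Ugt8a* was 0.077 in males, *Myrf* −0.00065 without the sex term, −0.11 in females and −0.25 with the measure, and *Olig2* 0.048 without the *Ttr* mice. For Nestin-Cre alone, males gave −0.038 for *Mag* and −0.033 for *Gpr17*, females 0.17 for *Myrf*, the fit without the *Ttr* mice −0.020 for *Mag* and −0.079 for *Olig2*, and the measure 0.083 for *Myrf* and 0.0014 for *Pdgfra*. For floxed *Egr1* alone, males gave −0.065 for *Mog*, −0.10 for *Myrf* and −0.0090 for *Gpr17*, and females −0.11 for *Sox10*. The fit without the *Ttr* mice there gave −0.026 for *Mog*, 0.0016 for *Ugt8a* and −0.043 for *Sox10*, and the measure 0.16 for *Ugt8a* and 0.016 for *Pdgfra*. The interaction term of *Myrf* was −0.00079 with DESeq2, −0.0011 with its size factors, −0.0021 without the filter, −0.0080 without the *Ttr* mice and −0.33 with the measure, which also gave −0.11 for *Gpr17*.

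When each mouse was left out in turn, *Ugt8a* ran from −0.14 to 0.026 and *Myrf* from −0.054 to 0.073 against all other mice, from −0.086 to 0.17 and −0.089 to 0.058 against Egr1fNesCre- mice, and *Myrf* from −0.067 to 0.094 and *Olig2* from −0.13 to 0.024 against Egr1wtNesCre+ mice. For Nestin-Cre alone *Mag* ran from −0.016 to 0.16, *Myrf* from −0.11 to 0.045, *Olig2* from −0.074 to 0.083 and *Gpr17* from −0.021 to 0.19. For floxed *Egr1* alone *Mog* ran from −0.078 to 0.063, *Ugt8a* from −0.16 to 0.056, *Myrf* from −0.068 to 0.071, *Sox10* from −0.046 to 0.094, *Gpr17* from −0.070 to 0.062 and *Cspg4* from −0.0093 to 0.11. The interaction term of *Myrf* ran from −0.063 to 0.066.

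Deviations of mice with the same replicate number had *r* from −0.26 to 0.35 (median −0.02) over 84 pairs, with 16 pairs over 0.1. Mice with different numbers were not set beside them, so these values cannot tell whether the numbers pair mice. With the replicate number as a block, 0 of the 30 genes were called in each comparison, the mature median was −0.21 against all other mice, and −0.0026 for *Gpr17* with floxed *Egr1* alone and −0.0053 for the interaction of *Myrf* changed sign. The block moved the count over all genes from 4 to 8 against Egr1fNesCre- mice. The fits without the *Ttr* mice and with the measure were added after the data were seen.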
